A study of Mus musculus with 24 samples.

Results

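The 10 genes described here encode surface molecules through which a B cell contacts a T cell, or which mark an activated lymphocyte: Cd80, Cd86, Icosl, Cd274, Pdcd1lg2, Tnfsf9, Cd83, Icam1, Cd44 and Cd69. They were chosen by symbol, and each symbol names 1 row of the 27179 genes counted. All 10 passed the filter on low counts in each fit.

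Full activation of a T cell needs the antigen receptor and a second signal from the antigen-presenting cell. CD80 and CD86 give that signal through CD28 and are also bound by the inhibitory receptor CTLA-4, ICOSL is the ligand of ICOS on follicular helper T cells, and PD-L1 (Cd274) and PD-L2 (Pdcd1lg2) engage the inhibitory receptor PD-1. ICAM-1 holds the cell pair together by binding the integrin LFA-1, while CD83, CD44 and CD69 are classical markers of lymphocyte activation. PU.1 (Spi1) and SpiB (Spib) are Ets family transcription factors of B cells that recognise the same GGAA core.

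RNA was sequenced from B cells of the lymph nodes of C57BL/6 mice in 24 libraries that cover 4 genotypes and 3 stages with 2 replicates each. Control mice were Cd23T/+, which means that they carried the Cre transgene, a BAC under Cd23 (Fcer2a) control that acts in B cells from the transitional stage. PU.1 cKO mice were Spi1fl/fl Cd23T/+, SpiB KO mice had the genotype Spi1fl/fl Cd23+/+ Spib-/-, while PU.1 SpiB double knockout (DKO) mice combined Spi1fl/fl Cd23T/+ with Spib-/-. The mutants thus shared the floxed Spi1 allele, which control did not carry, and SpiB KO was the one genotype without Cre. Spib was absent from the germ line, hence also from other cells of the mouse. Cells were naive, or had been cultured for 48 h with CD40L + IL-4 (a T cell signal) or with LPS + IL-4 (a bacterial product), and animals were matched for age and sex within an experiment. The CD40L + IL-4 libraries form 1 count table and the other 16 libraries a second one, so that for this culture stage and table cannot be told apart.

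A gene was called differentially expressed (DE) if its p, adjusted over all genes tested by Benjamini-Hochberg, was under 0.15, its fold exceeded 1.5 and its mean log2 RPKM was above 0, with edgeR's quasi-likelihood test on the counts. Levels are given as CPM, the counts scaled to library size. Totals of counts ranged from 14231188 to 18194629 in naive cells, from 9598674 to 61640683 in CD40L + IL-4 and from 22757630 to 73658850 in LPS + IL-4 cultures. Spib, the gene removed in SpiB KO and DKO, was DE and at least 14.2-fold lower than control in both at every stage. Spi1 was DE and lower in PU.1 cKO at every stage, and in DKO in naive cells (102.6 and 110.1 CPM against 154.9 and 173.7 CPM in control) and CD40L + IL-4 cultures. In the LPS + IL-4 libraries labelled DKO, Spi1 was at 63.9 and 58.8 CPM and overlapped control, at 72.0 and 60.7 CPM (log2 fold change -0.11 ± 0.10 SE, edgeR quasi-likelihood adjusted p = 0.448). Naive DKO libraries also held more Spi1 than those of PU.1 cKO, at 59.5 and 53.2 CPM (0.92 ± 0.11 SE, adjusted p = 0.000571, DE), and LPS + IL-4 DKO libraries lay above PU.1 cKO by 0.52 ± 0.10 SE (adjusted p = 0.00943, short of the fold threshold). Gene counts include exons that the floxed allele keeps, so they check the loss of PU.1 only in part, and DKO is used here as the name of a genotype, not as a measure of how much PU.1 was lost. From read coverage, the paper reports that the floxed Spi1 exon was fully excised in CD40L + IL-4 cultures. It describes a similar efficiency after LPS + IL-4, and partial retention of that exon in naive DKO cells. The part of these Spi1 levels in the DKO comparisons, the interactions and the differences between stages was not tested. The B cell markers Cd79a, Cd79b, Ms4a1, Pax5, Cd22 and Ptprc were at 83.7 CPM or more in every library. They were not level between genotypes. After CD40L + IL-4, Ms4a1 was at 478 and 703 CPM for DKO against 1524 and 2174 CPM in control (-1.65 ± 0.24 SE, adjusted p = 0.00117), and Pax5 (-0.94 ± 0.19 SE) and Cd22 (-0.67 ± 0.23 SE) were also DE and lower in DKO. In naive DKO cells Ms4a1 (-0.67 ± 0.12 SE) and Ptprc (-0.65 ± 0.20 SE) were DE and lower, while after LPS + IL-4 Cd79a and Cd22 were DE and higher (both 0.66). In naive PU.1 cKO cells Ptprc was lower than control (574 to 754 against 1012 to 1288 CPM) and Ms4a1 higher (2932 to 3091 against 2424 to 2785 CPM). After CD40L + IL-4, Pax5 was at 112 to 119 CPM for PU.1 cKO against 214 to 225 CPM in control, while Cd79a overlapped control. The part of these shifts in the lower Cd86, Icosl, Cd83 and Icam1 of PU.1 cKO was not tested. Nor was their part in the lower Cd86, Cd83 and Cd44 of DKO cells.

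The table of reference promoters held 6 of the 10 genes (Cd80, Icosl, Cd274, Pdcd1lg2, Icam1 and Cd44). For the 4 of these that were DE against control in more than 1 comparison, the 250 bases before the annotated start are printed below (RefSeq, GRCm38.p6, 5′ to 3′ on the strand of the gene), because PU.1 and SpiB both bind GGAA. Capitals mark the hexamer GAGGAA, the longer form of the site usually given for PU.1, found here in each case on the other strand as TTCCTC. The window of Icosl is chr10:78069118-78069367, that of Icam1 chr9:21015690-21015939 and that of Pdcd1lg2 chr19:29410669-29410918, on the plus strand, and that of Cd44 is chr2:102901666-102901915, on the minus strand.
Icosl: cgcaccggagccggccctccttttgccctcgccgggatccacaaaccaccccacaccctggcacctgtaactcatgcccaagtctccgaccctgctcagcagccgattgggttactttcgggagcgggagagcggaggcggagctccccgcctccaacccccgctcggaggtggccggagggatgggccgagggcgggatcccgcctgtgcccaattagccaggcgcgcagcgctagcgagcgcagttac
Icam1: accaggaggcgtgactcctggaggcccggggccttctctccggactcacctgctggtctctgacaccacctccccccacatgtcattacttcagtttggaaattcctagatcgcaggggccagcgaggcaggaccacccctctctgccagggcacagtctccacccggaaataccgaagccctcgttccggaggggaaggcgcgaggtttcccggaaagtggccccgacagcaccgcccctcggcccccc
Pdcd1lg2: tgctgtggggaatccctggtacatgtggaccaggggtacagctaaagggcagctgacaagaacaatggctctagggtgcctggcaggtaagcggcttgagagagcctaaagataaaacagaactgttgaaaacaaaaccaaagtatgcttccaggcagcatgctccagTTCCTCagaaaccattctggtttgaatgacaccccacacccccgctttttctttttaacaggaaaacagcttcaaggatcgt
Cd44: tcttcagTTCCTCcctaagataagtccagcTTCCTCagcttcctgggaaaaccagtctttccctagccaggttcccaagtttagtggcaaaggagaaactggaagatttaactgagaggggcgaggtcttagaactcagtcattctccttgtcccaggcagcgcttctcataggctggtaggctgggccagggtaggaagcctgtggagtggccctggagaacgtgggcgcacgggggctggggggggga
GAGGAA, searched on both strands, stood once in the Pdcd1lg2 window (position -82, counted from the start) and in 2 places in that of Cd44 (positions -220 and -243), and was not found in the windows of Icosl, Icam1, Cd80 and Cd274. Of 32851 promoters of this length, 23.3% held it. The core GGAA, which GAGGAA contains, is in 93.4% of them, with 0 matches in Icosl, 7 in Icam1, 4 in Pdcd1lg2 and 8 in Cd44.

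In RefSeq GRCm38.p6, Cd80 (chr16:38457430-38495958) and Cd86 (chr16:36568956-36666158) lie 1.79 Mb apart, and Cd274 (chr19:29362107-29388095) and Pdcd1lg2 (chr19:29410919-29472927) are 22.8 kb apart. Cd44 (chr2:102811141-102901669) shares its chromosome with Spi1, 11.7 Mb away. Icosl is at chr10:78069368-78079525, Tnfsf9 at chr17:57105287-57107758, Cd83 at chr13:43785112-43803133, Icam1 at chr9:21015940-21028814 and Cd69 at chr6:129267324-129275375. Cd274 overlaps the protein-coding gene Plgrkt, with 22518 counts over the 24 libraries, and Tnfsf9 overlaps the long non-coding RNA gene Gm11110, with 903 counts. No source states that reads were counted by strand, so the values of Cd274 and Tnfsf9 are uncertain in that respect.

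The 10 genes spanned a wide range in control cells. Compared per length, on the deposited log2 RPKM scale, Cd83 was highest in naive cells with a mean of 7.75, followed by Icosl at 7.07, Cd69 at 5.88 and Icam1 at 5.22. Tnfsf9, at 1.07, and Cd80, at -0.56, were lowest. Cd83 remained highest in CD40L + IL-4 (9.37) and LPS + IL-4 cultures (8.70), with Cd44 next (6.91 and 6.32). Icosl stood at rank 7 of 10 after CD40L + IL-4 and rank 8 after LPS + IL-4.

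To describe how the genes behaved upon activation, levels in control were compared between stages in a fit of all 24 libraries, with CPM normalized over them. Between CD40L + IL-4 and naive control cells 6 of the 10 were DE, 2 higher and 4 lower, where 18.5% of the 13684 genes tested were higher and 16.9% lower. Between LPS + IL-4 and naive cells 7 were DE, 4 higher and 3 lower (25.6% and 21.9% of all genes). Between the 2 cultures 6 were DE, 3 higher (Cd86, Icam1 and Cd69) and 3 lower (Icosl, Cd274 and Cd44) after LPS + IL-4 (16.6% and 14.3%). For Cd44 the last of these fell below the fold threshold without CD40L + IL-4 control replicate 2 or LPS + IL-4 control replicate 1 (-0.55 and -0.48).

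Icosl had the largest difference of the 10. It was at 330 and 447 CPM in naive control cells, at 15.9 and 21.5 CPM after CD40L + IL-4 and at 9.45 and 6.54 CPM after LPS + IL-4. No library of one stage overlapped another, and Icosl was 20.8-fold lower after CD40L + IL-4 (log2 fold change -4.38 ± 0.29 SE, edgeR adjusted p = 2.51e-10) and 49.2-fold lower after LPS + IL-4 (-5.62 ± 0.30 SE, adjusted p = 7.34e-12). The PD-1 ligand Pdcd1lg2 was also lower in both cultures, at 43.7 and 35.6 CPM in naive cells, 9.74 and 9.63 CPM after CD40L + IL-4 and 6.18 and 6.70 CPM after LPS + IL-4 (log2 fold changes of -2.03 ± 0.21 and -2.62 ± 0.20 SE). Cd274, the other PD-1 ligand, was at 52.9 and 51.3 CPM, 40.2 and 28.3 CPM, and 18.9 and 13.1 CPM (-0.60 ± 0.25 and -1.71 ± 0.25 SE). For Cd274 in CD40L + IL-4 the call was lost when CD40L + IL-4 control replicate 2 or naive control replicate 1 was left out (adjusted p = 0.31 and 0.126), and by the fold without the filter on low counts (-0.57).

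Cd44, the hyaluronan receptor, was at 119.7 and 100.4 CPM in naive control cells, 649.9 and 687.8 CPM after CD40L + IL-4 and 400.2 and 487.1 CPM after LPS + IL-4. It was 6.08-fold and 4.03-fold higher than in naive cells, respectively (adjusted p = 3.37e-11 and 4.99e-10). Cd83 was at 509 and 452 CPM, 1135 and 1408 CPM, and 946 and 808 CPM, so it was higher in both cultures, by 2.65-fold and 1.82-fold. Cd86 was at 34.0 and 36.9 CPM in naive cells and 32.0 and 39.5 CPM after CD40L + IL-4, which overlapped (log2 fold change 0.01, approximate 95% interval -0.45 to 0.47). It was higher after LPS + IL-4 at 69.5 and 61.3 CPM (0.88 ± 0.23 SE, edgeR adjusted p = 0.00222). Icam1 was likewise DE and higher after LPS + IL-4 (143.3 and 156.2 CPM against 92.1 and 98.7 CPM in naive cells, 0.65 ± 0.11 SE; 0.47 and below the fold threshold with voom), and not after CD40L + IL-4 (73.1 and 87.7 CPM, -0.25 ± 0.11 SE).

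Cd69, an early activation marker that holds lymphocytes back in tissue, was at 109.2 and 85.2 CPM in naive control cells and lower after CD40L + IL-4, at 26.7 and 37.3 CPM (-1.61 ± 0.17 SE, adjusted p = 2.18e-07). After LPS + IL-4 its 85.8 and 83.2 CPM overlapped the naive values (-0.20 ± 0.16 SE, adjusted p = 0.279). Cd80 and Tnfsf9 were at 0.966 to 1.64 CPM and 1.68 to 3.91 CPM across the control libraries, and neither passed the test between any of the stages.

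**Figure D1:**
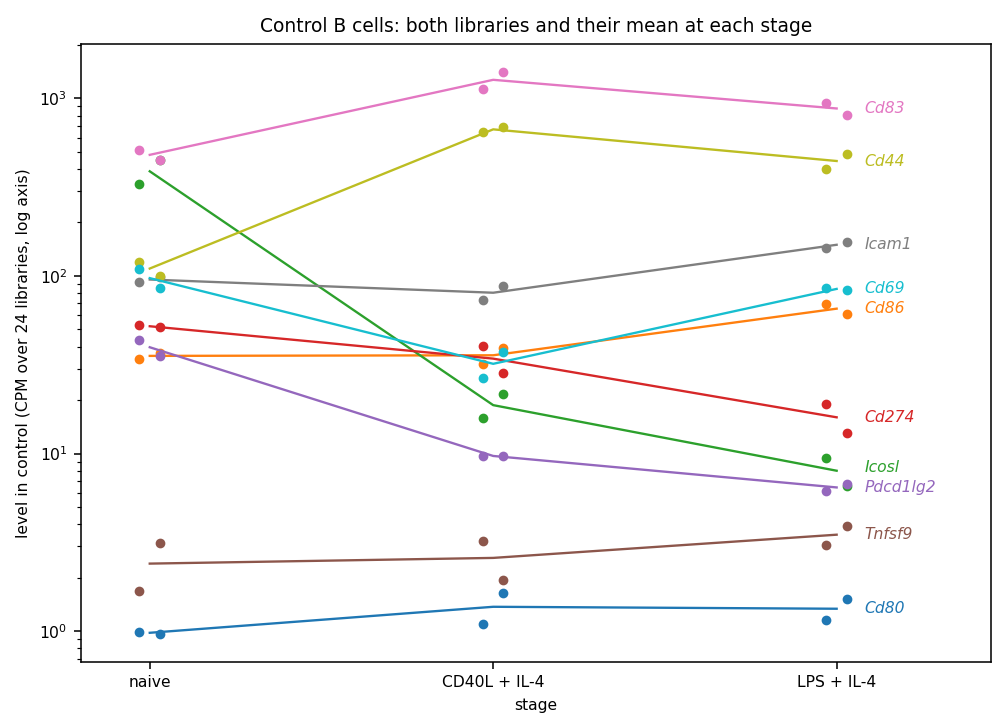
Level of the 10 genes in control B cells at each stage, as CPM normalized over 24 libraries (log axis); points are the 2 libraries and lines join their means. Icosl drops from 330 and 447 CPM in naive cells to below 10 CPM in both LPS + IL-4 libraries, whereas Cd44 and Cd83 are higher in both cultures than in naive cells.

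To see how the genes depend on PU.1 and SpiB, the genotypes were compared within each stage, with CPM normalized over the 8 libraries of that stage. Each mutant was compared with the same 2 control libraries. In naive cells, PU.1 cKO had 3 of the 10 genes DE and lower and 0 higher (5.24% of the 12500 genes tested were lower and 3.16% higher). SpiB KO had 1 lower and 1 higher (2.9% and 3.46%), and DKO had 4 lower and 1 higher (6.7% and 7.39%). The median log2 fold change of the 10 was -0.53, -0.10 and -0.60 in these comparisons, against -0.01, 0.01 and 0.00 over all genes. It was -0.66, -0.07 and -0.38 after CD40L + IL-4 and -0.19, -0.01 and -0.62 after LPS + IL-4, where the medians of all genes lay between -0.01 and 0.01. In CD40L + IL-4 cultures 5 were lower and 0 higher in PU.1 cKO (5.45% and 3.91% of 12721 genes), and 3 were lower and 0 higher in DKO (7.82% and 5.84%). SpiB KO had 0 of 10 DE, where 0.11% of all genes were DE, with 0 of the 10 at an unadjusted p under 0.05 and 0 DE by DESeq2 or voom. In LPS + IL-4 cultures 2 were lower and 1 higher in PU.1 cKO (2.74% and 3.93% of 12445 genes), 0 lower and 1 higher in SpiB KO (0.667% and 1.62%), and 5 lower and 2 higher in DKO (4.81% and 8.76%). These are bulk libraries, in which fewer cells of a type and less RNA per cell cannot be told apart. With 2 libraries a group, an exact permutation test of a single gene cannot go below p = 0.333, so the tests rest on the spread shared across genes by edgeR.

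**Figure D2:**
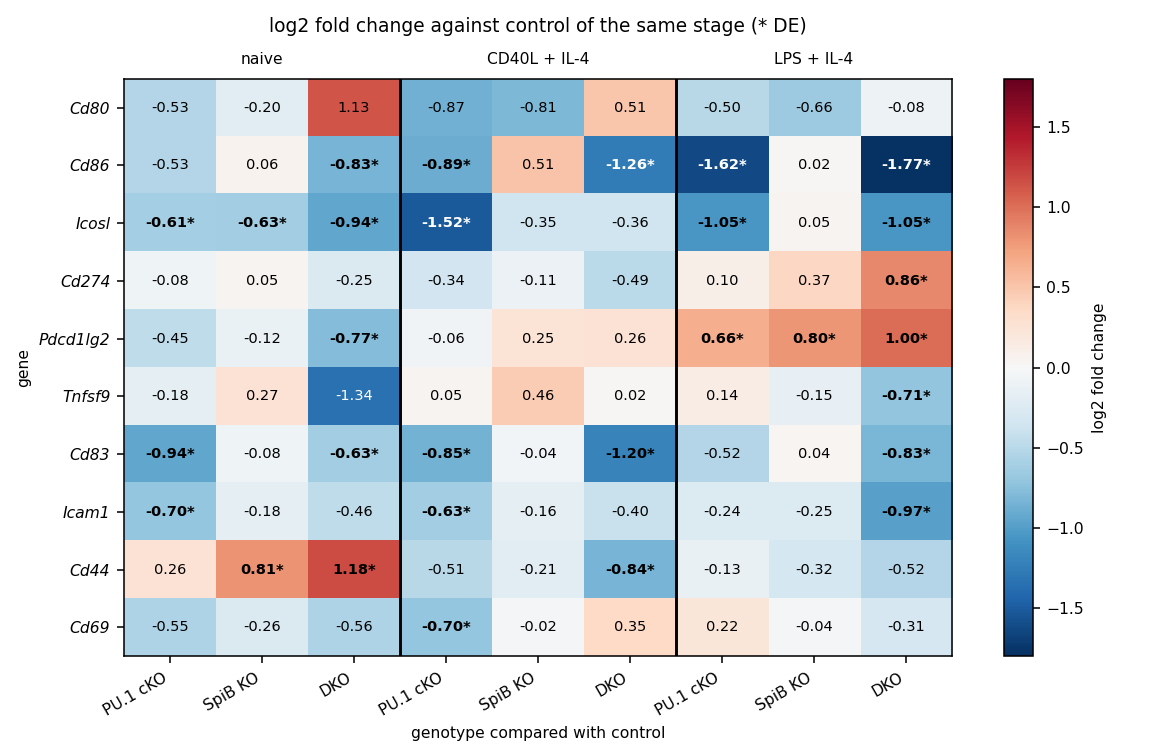
The log2 fold change of each gene (rows) in each mutant against control of the same stage (columns), with an asterisk where the gene was DE. Cd86, Icosl and Cd83 are mostly lower in PU.1 cKO and DKO, and Cd44 is higher in naive SpiB KO and DKO.

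Cd86 was lower in DKO at all 3 stages. In naive cells it was at 31.3 and 35.3 CPM in control, 21.7 and 24.3 CPM for PU.1 cKO, 29.6 and 39.8 CPM for SpiB KO and 18.2 and 19.1 CPM for DKO. The DKO libraries lay below all others (log2 fold change against control -0.83 ± 0.17 SE, edgeR adjusted p = 0.00841), while in PU.1 cKO the change of -0.53 ± 0.17 SE had an adjusted p of 0.0951 and did not reach the fold threshold. After CD40L + IL-4, Cd86 was at 33.2 and 40.3 CPM in control, 25.9 and 14.7 CPM for PU.1 cKO, 65.3 and 39.3 CPM for SpiB KO and 16.6 and 14.1 CPM for DKO. PU.1 cKO and DKO were lower than control (PU.1 cKO -0.89 ± 0.29 SE, adjusted p = 0.0899; DKO -1.26 ± 0.30 SE, adjusted p = 0.0192). The PU.1 cKO call was lost without either control library, or without PU.1 cKO replicate 2, the deepest library of that culture (log2 fold changes of -1.02 to -0.49, adjusted p = 0.157 to 0.566).

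The largest differences of Cd86 were in LPS + IL-4 cultures. Control was at 72.5 and 62.01 CPM, PU.1 cKO at 23.5 and 20.1 CPM, SpiB KO at 63.6 and 72.4 CPM and DKO at 17.7 and 21.7 CPM. The libraries of control and SpiB KO thus lay above those of the 2 genotypes with both Cre and floxed Spi1, with no overlap. Cd86 was 3.08-fold lower in PU.1 cKO (-1.62 ± 0.14 SE, adjusted p = 9.99e-05) and 3.42-fold lower in DKO (-1.77 ± 0.14 SE, adjusted p = 2.66e-05). In SpiB KO it differed from control by 0.02 (approximate 95% interval -0.25 to 0.28). Against SpiB KO, Cd86 was DE and lower in DKO at each stage (-0.90, -1.77 and -1.79 in naive, CD40L + IL-4 and LPS + IL-4 cells). The naive one of these was lost without either DKO library or without SpiB KO replicate 2 (adjusted p = 0.152 to 0.237).

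Cd80, the second ligand of CD28, was barely detected, with 5 to 85 counts a library, and its mean log2 RPKM was below 0 at every stage, so it could not be DE. In naive DKO it was at 2.15 and 1.90 CPM against 0.910 and 0.924 CPM in control (1.13 ± 0.45 SE, adjusted p = 0.107). Those libraries lay above the other 6. No such separation from control was seen in DKO after CD40L + IL-4 (2.37 and 1.62 CPM against 1.14 and 1.68 CPM) or LPS + IL-4 (1.17 and 1.46 CPM against 1.21 and 1.53 CPM).

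Icosl was lower in every naive mutant. Control was at 303 and 427 CPM, PU.1 cKO at 224 and 256 CPM, SpiB KO at 202 and 271 CPM and DKO at 155 and 225 CPM. No mutant library reached the control values, and the log2 fold changes were -0.61 ± 0.22 SE (adjusted p = 0.132), -0.63 ± 0.22 SE (adjusted p = 0.141) and -0.94 ± 0.22 SE (adjusted p = 0.016). Leaving out naive control replicate 2 left a log2 fold change of -0.34 for PU.1 cKO, while that of SpiB KO was -0.36 (adjusted p = 0.494 and 0.582), and either library of the mutant concerned also ended these 2 calls. After CD40L + IL-4, Icosl was at 16.49 and 22.002 CPM in control, 6.21 and 7.07 CPM for PU.1 cKO, 19.0 and 11.2 CPM for SpiB KO and 11.1 and 18.8 CPM for DKO. PU.1 cKO was DE and lower than control (-1.52 ± 0.31 SE, adjusted p = 0.012). DKO was not DE against control (-0.36 ± 0.30 SE, adjusted p = 0.47) and was DE and higher than PU.1 cKO (1.16 ± 0.31 SE, adjusted p = 0.103). That last call was lost without either PU.1 cKO library or without DKO replicate 2 (adjusted p = 0.331 to 0.603). After LPS + IL-4 the values were 9.85 and 6.62 CPM in control, 3.76 and 4.11 CPM for PU.1 cKO, 8.03 and 8.84 CPM for SpiB KO and 4.36 and 3.50 CPM for DKO. PU.1 cKO and DKO were each 2.07-fold lower than control (adjusted p = 0.0107 and 0.00523).

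Pdcd1lg2, a ligand of PD-1, was lower in naive DKO cells and higher in all 3 mutants after LPS + IL-4. In naive cells Pdcd1lg2 was at 40.2 and 34.1 CPM in control, 26.9 and 27.3 CPM for PU.1 cKO, 34.4 and 34.0 CPM for SpiB KO and 22.01 and 21.4 CPM for DKO. It was DE and lower in DKO (-0.77 ± 0.13 SE, adjusted p = 0.00371), whereas in PU.1 cKO the change of -0.45 ± 0.13 SE (adjusted p = 0.0762) did not reach the fold threshold. After CD40L + IL-4 all 8 libraries lay between 8.22 and 15.4 CPM, with no mutant DE. After LPS + IL-4 control was at 6.44 and 6.78 CPM and every mutant library was higher, at 10.7 and 10.2 CPM for PU.1 cKO, 10.7 and 12.5 CPM for SpiB KO and 12.9 and 13.6 CPM for DKO. The log2 fold changes were 0.66 ± 0.13 SE (adjusted p = 0.0109), 0.80 ± 0.13 SE (adjusted p = 0.0172) and 0.999 ± 0.13 SE (adjusted p = 0.000553). This was the one DE gene of the 10 in SpiB KO of that culture.

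Cd274 was at 40.6 to 56.7 CPM in all 8 naive libraries and at 19.2 to 42.0 CPM in those of CD40L + IL-4, with no mutant DE. After LPS + IL-4 it was at 19.7 and 13.2 CPM in control, 18.0 and 16.9 CPM for PU.1 cKO, 23.3 and 18.6 CPM for SpiB KO and 32.2 and 27.1 CPM for DKO. The DKO libraries were the 2 highest, and the gene was DE against control (0.86 ± 0.19 SE, adjusted p = 0.00705) and against PU.1 cKO (0.76 ± 0.19 SE, adjusted p = 0.0213). The difference from SpiB KO was 0.50 ± 0.19 SE (adjusted p = 0.1), short of the fold threshold.

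Tnfsf9, a TNF family ligand that costimulates T cells through Tnfrsf9, was at 0.632 to 4.72 CPM over the 24 libraries. In naive cells its control libraries, at 1.54 and 2.99 CPM, lay apart, and DKO libraries were below both at 1.17 and 0.632 CPM, but the gene was not DE (-1.34 ± 0.68 SE, adjusted p = 0.197). After LPS + IL-4 it was at 3.20 and 3.96 CPM in control and 2.04 and 2.39 CPM for DKO, a DE decrease (-0.71 ± 0.25 SE, adjusted p = 0.0521). It was also lower than PU.1 cKO, at 3.31 and 4.72 CPM (-0.85 ± 0.24 SE, adjusted p = 0.0381). Against control the call was lost without DKO replicate 1 or control replicate 2 (adjusted p = 0.23 and 0.269), and against PU.1 cKO without DKO replicate 1 or PU.1 cKO replicate 2 (adjusted p = 0.196 and 0.25).

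Cd83, the highest of the 10 per length in control, was lower in DKO at all 3 stages. In naive cells it was at 468 and 432 CPM in control, 225 and 245 CPM for PU.1 cKO, 392.1 and 460.5 CPM for SpiB KO and 319 and 263 CPM for DKO. The PU.1 cKO libraries were the lowest (-0.94 ± 0.13 SE, adjusted p = 0.00347), followed by DKO (-0.63 ± 0.13 SE, adjusted p = 0.0095), and DKO did not differ from PU.1 cKO by the test (0.31 ± 0.13 SE, adjusted p = 0.202). Without control replicate 1 or DKO replicate 2 the naive DKO change, at -0.58 and -0.52, fell below the fold threshold. After CD40L + IL-4 the values were 1176 and 1439 CPM in control, 781 and 668 CPM for PU.1 cKO, 1434 and 1106 CPM for SpiB KO and 603 and 536 CPM for DKO. PU.1 cKO and DKO lay below control and SpiB KO (-0.85 ± 0.18 SE, adjusted p = 0.0162, and -1.20 ± 0.19 SE, adjusted p = 0.00176), and the PU.1 cKO call was lost without its replicate 2 (-0.73, adjusted p = 0.19). After LPS + IL-4, control was at 986 and 817 CPM, PU.1 cKO at 705 and 550 CPM, SpiB KO at 922 and 925 CPM and DKO at 517 and 499.8 CPM. Cd83 was DE in DKO (-0.83 ± 0.13 SE, adjusted p = 0.00132), and in PU.1 cKO the change of -0.52 ± 0.13 SE (adjusted p = 0.0278) stayed below the fold threshold.

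**Figure D3:**
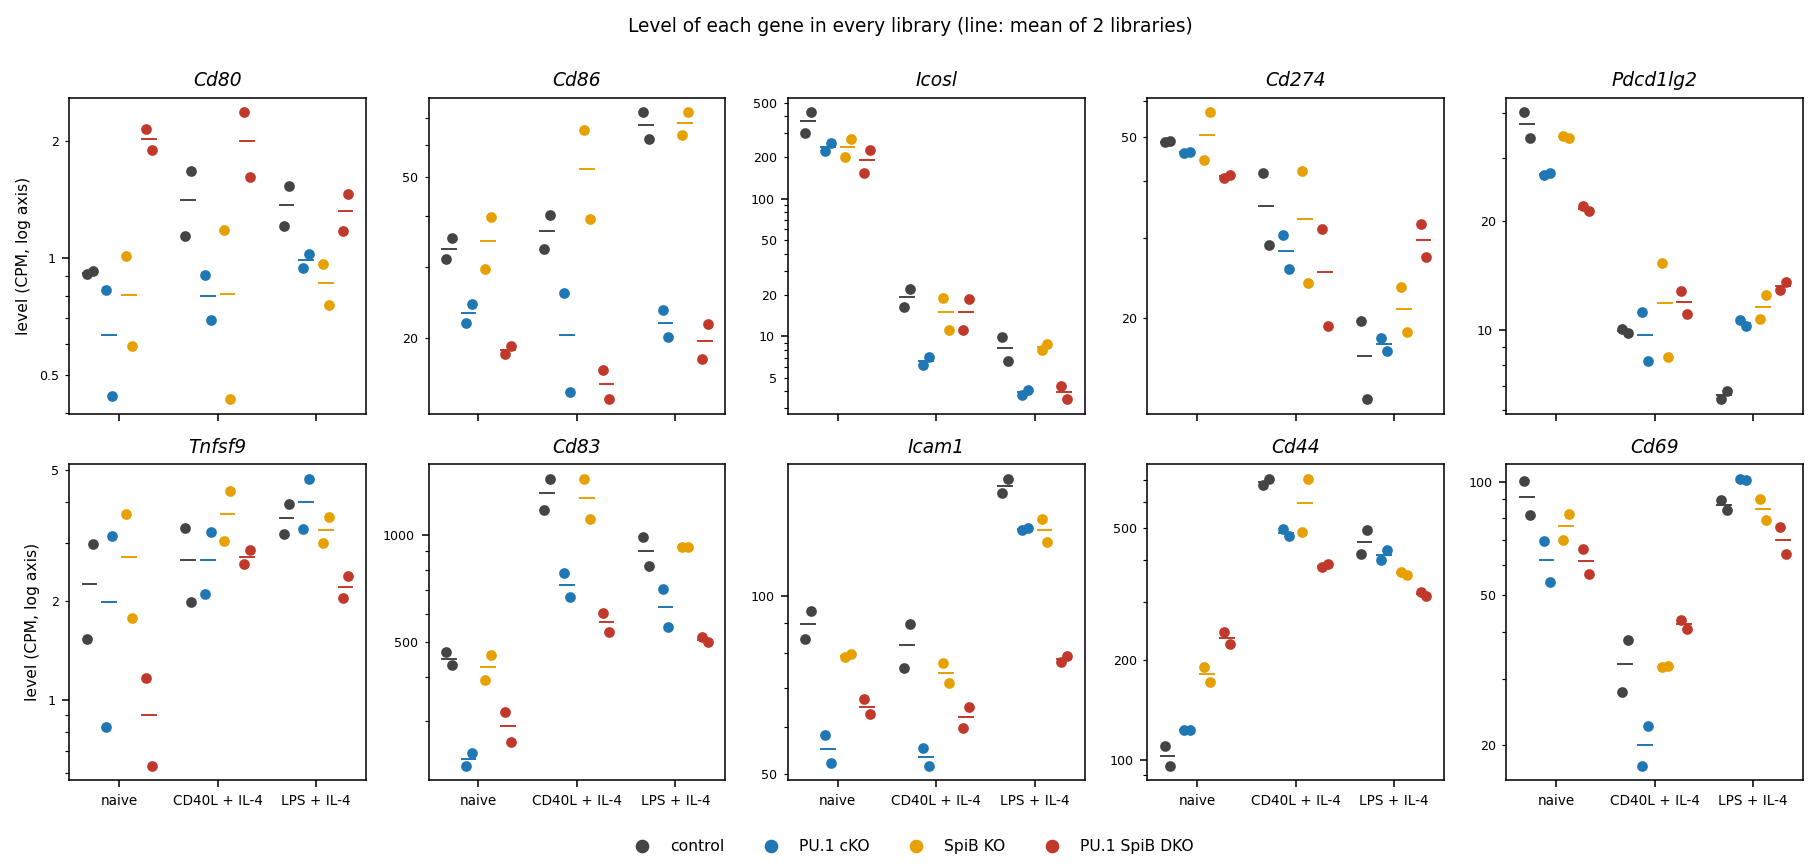
Level of each of the 10 genes in all 24 libraries (CPM normalized within a stage, log axis), by stage and genotype; points are libraries and short lines the mean of 2. In LPS + IL-4 cultures Cd86 lies at 62.01 CPM or more in control and SpiB KO, and at 23.5 CPM or less in PU.1 cKO and DKO.

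Icam1, the ligand of LFA-1, was at 84.7 and 94.4 CPM in naive control cells, 58.3 and 52.2 CPM for PU.1 cKO, 78.9 and 79.7 CPM for SpiB KO and 66.9 and 63.1 CPM for DKO. It was DE in PU.1 cKO (-0.70 ± 0.11 SE, adjusted p = 0.00746), and the change in DKO, -0.46 ± 0.11 SE (adjusted p = 0.02), did not reach the fold threshold. The same order held after CD40L + IL-4, with 75.7 and 89.7 CPM in control, 55.3 and 51.6 CPM for PU.1 cKO (-0.63 ± 0.15 SE, adjusted p = 0.0267), 76.96 and 71.2 CPM for SpiB KO and 59.9 and 65.1 CPM for DKO (-0.40 ± 0.15 SE, adjusted p = 0.108). The PU.1 cKO call was lost without its replicate 2 (adjusted p = 0.24) or, by the fold, without control replicate 2 (-0.50). After LPS + IL-4 the DKO libraries stood apart. Control was at 149.4 and 158.1 CPM, PU.1 cKO at 129.5 and 130.7 CPM, SpiB KO at 135.2 and 123.7 CPM and DKO at 77.5 and 79.3 CPM. Icam1 was 1.96-fold lower in DKO than in control (-0.97 ± 0.08 SE, adjusted p = 3.36e-05), and 1.66-fold and 1.65-fold lower than in PU.1 cKO and SpiB KO (adjusted p = 0.000852 and 0.000387).

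Cd44 was higher in naive SpiB KO and DKO cells and lower in DKO cells after CD40L + IL-4. In naive cells it was at 110.1 and 96.0 CPM in control, 123.1 and 122.8 CPM for PU.1 cKO, 190.4 and 171.6 CPM for SpiB KO and 242.7 and 223.1 CPM for DKO. The groups did not overlap. SpiB KO (0.81 ± 0.11 SE, adjusted p = 0.00254) and DKO (1.18 ± 0.11 SE, adjusted p = 0.000152) were DE against control, and DKO was DE and 1.89-fold higher than PU.1 cKO (adjusted p = 0.000574). PU.1 cKO was not DE (0.26 ± 0.11 SE, adjusted p = 0.206). After CD40L + IL-4, Cd44 was at 673 and 703 CPM in control, 496 and 474 CPM for PU.1 cKO, 488 and 706 CPM for SpiB KO and 381 and 390.1 CPM for DKO, where it was DE (-0.84 ± 0.18 SE, adjusted p = 0.0121). It was also DE and lower there than in SpiB KO, a call lost without either DKO library or SpiB KO replicate 2 (adjusted p = 0.164 to 0.256). After LPS + IL-4 the range was 312 to 493 CPM, with DKO lowest at 321 and 312 CPM (-0.52 ± 0.09 SE, adjusted p = 0.00253, short of the fold threshold).

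Markers of other cell types moved with Cd44 in naive cells, which had been sorted as CD3- B220+ (B220 is a form of CD45 that B cells carry and mouse pDC carry too). The list for plasmacytoid dendritic cells (pDC), 10 genes of which 9 were DE and higher in both SpiB KO and DKO, summed to 252 to 413 CPM in control, 327 to 378 CPM for PU.1 cKO, 1943 to 2457 CPM for SpiB KO and 2636 to 2957 CPM for DKO. Its defining gene Siglech was at 23.9 to 57.2 CPM in control and 229 to 267 CPM for DKO. The T cell list summed to 27.7 to 66.9 CPM in control, 41.4 to 43.5 CPM for PU.1 cKO, 328 to 409 CPM for SpiB KO and 456 to 465 CPM for DKO, with 4 of the 8 genes tested DE and higher in SpiB KO and 5 in DKO. Most of that sum was Cd8a (233 to 266 CPM for DKO), a gene that pDC express too, while Cd3d, Cd3e and Cd3g were at most 1.23 CPM in every naive library. The macrophage and dendritic cell list (15 of 16 genes in the table) summed to 26.9 to 50.7 CPM in control, 31.0 to 33.7 CPM for PU.1 cKO, 140 to 159 CPM for SpiB KO and 189 to 203 CPM for DKO, with 4 and 5 of the 9 genes tested DE and higher. Of all genes tested in naive cells, 3.46% were DE and higher in SpiB KO and 7.39% in DKO. The paper proposes that SpiB holds down genes of other lineages within B cells. In bulk libraries, such expression and the presence of other cells cannot be told apart. The part of either in the naive values of Cd44 and the other 9 genes in SpiB KO and DKO was not tested. In the cultures Siglech was at most 0.493 CPM in any library, and the pDC list summed to 47.1 to 99.99 CPM, with Bst2 or Pacsin1 highest. The T cell list summed there to 32.5 to 205.4 CPM, mostly Thy1, and was highest in DKO.

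**Figure D4:**
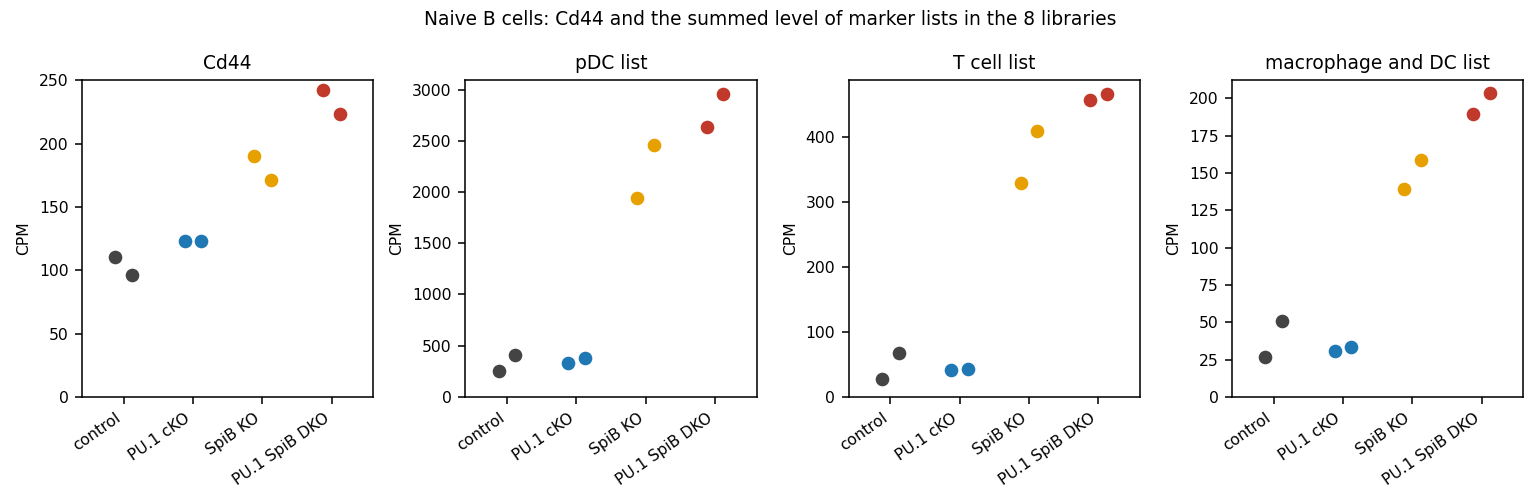
Naive B cells: Cd44 (left) and the summed CPM of the pDC, T cell and macrophage and dendritic cell marker lists in the 8 libraries, by genotype (linear axes from 0). For the lists the lower of the 2 libraries of a genotype is drawn first; SpiB KO and DKO lie above control and PU.1 cKO in all panels.

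Cd69 was at 100.4 and 81.5 CPM in naive control cells, 69.6 and 54.4 CPM for PU.1 cKO, 70.2 and 82.2 CPM for SpiB KO and 66.3 and 56.9 CPM for DKO. Changes in PU.1 cKO (-0.55 ± 0.16 SE, adjusted p = 0.0756) and DKO (-0.56 ± 0.16 SE, adjusted p = 0.039) remained short of the fold threshold. After CD40L + IL-4, control was at 27.6 and 38.14 CPM, PU.1 cKO at 17.6 and 22.5 CPM, SpiB KO at 32.2 and 32.4 CPM and DKO at 43.0 and 40.8 CPM. PU.1 cKO was thus DE and lower than control (-0.70 ± 0.19 SE, adjusted p = 0.0485) and DKO was DE and 2.07-fold higher than PU.1 cKO (1.05 ± 0.19 SE, adjusted p = 0.0207). The first of these calls was lost without control replicate 2 or PU.1 cKO replicate 1 (adjusted p = 0.271 and 0.267), and the second without PU.1 cKO replicate 1 (adjusted p = 0.171). After LPS + IL-4 all libraries lay between 64.5 and 102.0 CPM and none of the mutants was DE against control. The DKO, at 75.9 and 64.5 CPM, was below control, at 89.4 and 84.2 CPM, but short of the fold threshold (-0.31 ± 0.10 SE, adjusted p = 0.0417).

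In the cultures, the plasma cell list (Sdc1, Prdm1, Xbp1, Jchain, Tnfrsf17 and Mzb1, 5 in the table) was higher in PU.1 cKO and DKO. It summed to 1219 to 1507 CPM in control, 2075 to 2409 CPM for PU.1 cKO, 1252 to 1573 CPM for SpiB KO and 3133 to 3284 CPM for DKO after CD40L + IL-4, and to 863 to 912, 1354 to 1549, 884 to 979 and 2034 to 2092 CPM after LPS + IL-4. Of the 5 genes tested after CD40L + IL-4, 3 were DE and higher in PU.1 cKO and 4 in DKO (3.91% and 5.84% of all genes). Of the 4 tested after LPS + IL-4 the counts were 2 and 3 (3.93% and 8.76% of all genes). In naive cells the list summed to 541 to 591 CPM in control and 772 to 803 CPM for PU.1 cKO. It summed there to 678 to 795 CPM for SpiB KO and 770 to 975 CPM for DKO. Xbp1 and Mzb1 were the highest genes in every group. Sdc1 was at 17.4 to 19.5 CPM for DKO and 10.6 to 14.1 CPM for PU.1 cKO after CD40L + IL-4 (control 4.19 to 4.30 CPM). In LPS + IL-4 DKO cells it overlapped control (7.60 to 8.26 against 7.59 to 8.56 CPM). In naive cells Sdc1 was at 11.2 to 17.9 CPM in control and 3.50 to 3.98 CPM for PU.1 cKO. It was higher there in SpiB KO (33.1 to 37.9 CPM) and DKO (34.5 to 41.2 CPM). Cells had been sorted as CD138-. The part of any cells on the way to plasma cells in the lower Cd86, Icosl, Cd83 and Cd44 of these cultures was not tested.

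The mutants were also compared with each other. DKO had 1 of the 10 genes DE and higher than PU.1 cKO in naive cells (Cd44, where 5.34% of all genes were), 2 after CD40L + IL-4 (Icosl and Cd69, 1.41%), and after LPS + IL-4 1 higher (Cd274, 5.72%) and 2 lower (Tnfsf9 and Icam1, 2.38%). Relative to SpiB KO it had 2 lower in naive cells (Cd86 and Pdcd1lg2, 0.792%), 3 after CD40L + IL-4 (Cd86, Cd83 and Cd44, 6.18%) and 4 after LPS + IL-4 (Cd86, Icosl, Cd83 and Icam1, 2.9%). The naive Pdcd1lg2 call, -0.66 ± 0.13 SE, was lost without any 1 of the 4 libraries compared (adjusted p = 0.206 to 0.261).

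Whether DKO departed from the sum of the PU.1 cKO and SpiB KO changes was tested as an interaction, at an adjusted p under 0.15. Spi1 itself passed in naive cells (0.93 ± 0.16 SE, adjusted p = 0.0486), so the sum there is not one of equal Spi1 levels. In naive cells 0 of 10 genes passed (0.936% of all genes did, and 2 of the 10, Cd80 and Icam1, had an unadjusted p under 0.05). With the replicate number as a block, Icam1 passed there (0.41, adjusted p = 0.127), and DESeq2 without a block called 0. After CD40L + IL-4 0 of 10 passed (1.17% of all genes). An unadjusted p under 0.05 was found for 3, Cd80 (2.18 ± 0.82 SE, adjusted p = 0.452), Icosl (1.51 ± 0.43 SE, adjusted p = 0.249) and Cd69 (1.07 ± 0.27 SE, adjusted p = 0.173), of which DESeq2 called Icosl and Cd69. After LPS + IL-4 1 of 10 passed, Icam1 (-0.48 ± 0.11 SE, adjusted p = 0.133; 1.48% of all genes), which was lost when any of 7 of the 8 libraries was left out (adjusted p = 0.216 to 0.461). With the replicate block, Cd69 passed as well (-0.49, adjusted p = 0.0254).

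**Figure D5:**
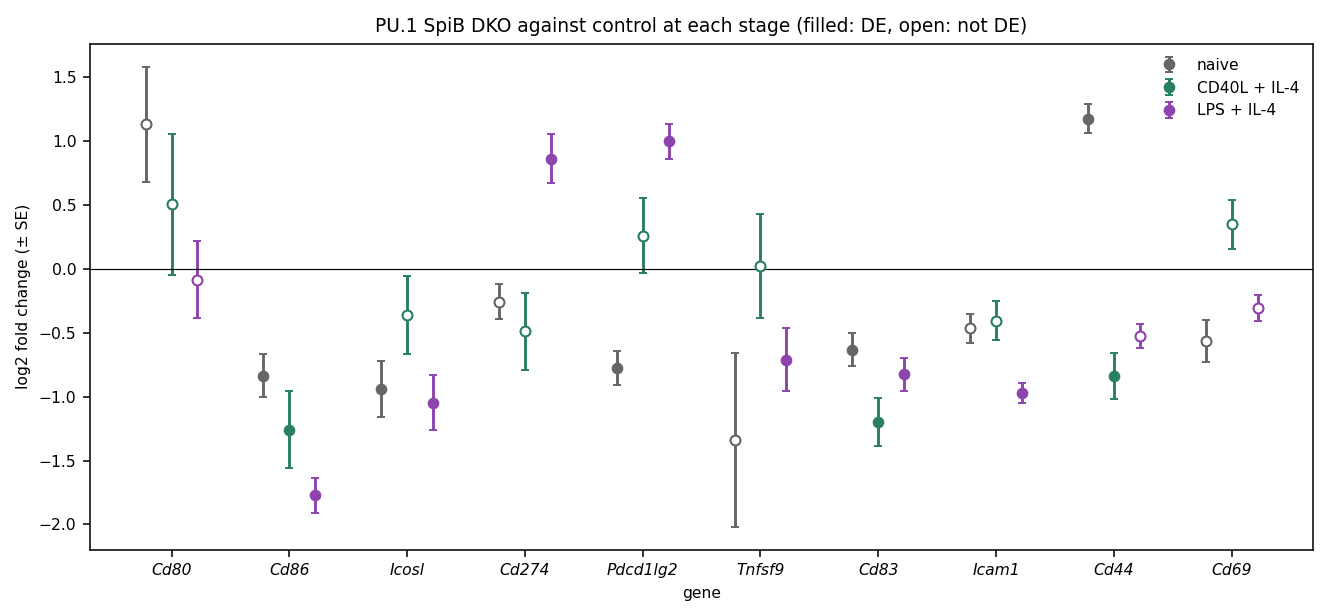
The log2 fold change of each gene in DKO against control (± SE of the fit on 8 libraries) at each stage; filled points are DE. Cd44 is DE and higher in naive and DE and lower in CD40L + IL-4 cells, Pdcd1lg2 is DE and lower in naive and DE and higher in LPS + IL-4 cells, and Cd86 and Cd83 are DE and lower at each stage.

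Differences of an effect between stages were tested in the fit of 24 libraries. The PU.1 cKO effect differed for 1 of 10 genes between CD40L + IL-4 and naive cells (9.05% of all genes), for 3 between LPS + IL-4 and naive cells (6.34%) and for 1 between the cultures (3.09%). With the replicate block Icam1 was also called between LPS + IL-4 and naive cells (0.43, adjusted p = 0.0664). The DKO effect differed for 4 (16.8%), 6 (29.6%) and 4 genes (28.6%). For Cd44 the DKO effect was lower by 3.98-fold in CD40L + IL-4 than in naive cells (difference -1.99 ± 0.20 SE, adjusted p = 3.06e-06) and for Pdcd1lg2 it was higher by 3.27-fold in LPS + IL-4 than in naive cells (1.71 ± 0.28 SE, adjusted p = 0.000319). Of these 19 differences, 11 were lost when some single library was left out. The effects at 2 stages do not share libraries, but the stages differ in depth and CD40L + IL-4 also in count table.

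Among the receptors of the ligands (Cd28, Ctla4, Icos, Pdcd1, Tnfrsf9, Itgal and Itgb2), 5 passed the filter on low counts in naive cells and 6 in each culture. In DKO 1 was DE and higher in naive cells and after CD40L + IL-4, and after LPS + IL-4 3 were higher and 1 lower. PU.1 cKO had 0 DE in naive cells, 1 higher and 1 lower after CD40L + IL-4 and 3 higher after LPS + IL-4, and SpiB KO 1, 0 and 1 higher. Of all genes tested, DKO had 7.39%, 5.84% and 8.76% higher and 6.7%, 7.82% and 4.81% lower in naive, CD40L + IL-4 and LPS + IL-4 cells, PU.1 cKO 3.16%, 3.91% and 3.93% higher and 5.24%, 5.45% and 2.74% lower, and SpiB KO 3.46% and 1.62% higher in naive and LPS + IL-4 cells. Cd28, which T cells use to read CD80 and CD86, was at 2.71 ± 0.82 CPM (SD, n = 2) in naive control cells and 29.9 ± 6.43 CPM for DKO, with 28.3 ± 3.64 CPM for SpiB KO and 2.66 ± 0.64 CPM for PU.1 cKO, the same split as the pDC list. After CD40L + IL-4 it was at 3.27 ± 1.21 CPM in control, 37.4 ± 9.61 CPM for PU.1 cKO and 32.9 ± 17.6 CPM for DKO, and after LPS + IL-4 at 1.40 ± 0.78, 4.35 ± 0.97 and 31.0 ± 1.36 CPM (DKO against control, log2 fold changes of 3.46 ± 0.27, 3.31 ± 0.45 and 4.60 ± 0.32 SE). Cd3d, Cd3e and Cd3g, which T cells express, were at most 0.667 CPM in the cultures. In LPS + IL-4 DKO cells Pdcd1 (1.46 ± 0.13 SE) and Ctla4 (3.01 ± 0.51 SE) were higher and Itgal, the alpha chain of LFA-1, lower (-1.04 ± 0.08 SE). In control, 1 receptor was higher and 1 lower after CD40L + IL-4 than in naive cells (18.5% and 16.9% of all genes). After LPS + IL-4, 1 was higher and 2 lower (25.6% and 21.9%), with 6 tested in both comparisons. Pdcd1 was the higher one in both cultures (3.37 ± 0.73 and 3.63 ± 0.68 SE). Itgal was lower after CD40L + IL-4 (-0.84 ± 0.11 SE), and Cd28 (-1.22 ± 0.48 SE) and Itgb2 (-0.99 ± 0.12 SE) were lower after LPS + IL-4.

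Of 25 other ligands and costimulatory molecules of the B7, TNF, semaphorin and related families, 23 were in the table. In DKO 1 was higher and 4 lower in naive cells (17 tested), 1 higher and 5 lower after CD40L + IL-4 (18 tested) and 3 higher and 3 lower after LPS + IL-4 (16 tested). PU.1 cKO had 1 higher and 2 lower, 1 and 4, and 2 and 2, and SpiB KO 1, 0 and 1 higher and 0 lower at any stage, to be read against the same shares of all genes (in DKO 7.39% higher and 6.7% lower in naive cells, 5.84% and 7.82% after CD40L + IL-4, and 8.76% and 4.81% after LPS + IL-4). Only up to 4 DE genes with the largest change are named per comparison, so a stage not given for a gene may still hold a change. In DKO Cd40, the receptor for the CD40L of the culture, was lower at all 3 stages (log2 fold changes of -1.52 ± 0.14, -1.96 ± 0.20 and -2.14 ± 0.12 SE). Cd200, which inhibits myeloid cells through its receptor, was also lower at all 3 (-1.27 ± 0.14, -1.20 ± 0.28 and -0.84 ± 0.22 SE). Cd24a was higher in both cultures (2.22 ± 0.25 and 1.03 ± 0.13 SE) and Sema7a in naive cells (1.95 ± 0.11 SE). Btnl2 was lower in naive (-0.84 ± 0.34 SE) and LPS + IL-4 cells (-1.45 ± 0.19 SE), and Sema4a after CD40L + IL-4 (-1.53 ± 0.32 SE). In control, 2 were higher and 5 lower after CD40L + IL-4 than in naive cells and 1 and 5 after LPS + IL-4 (20 tested, where 18.5% and 16.9%, and 25.6% and 21.9% of all genes were), with Btla, an inhibitory receptor and ligand, at -2.96 ± 0.22 and -3.89 ± 0.23 SE.

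Of 16 other activation markers, 4 were higher and 4 lower in naive DKO cells, 6 and 5 after CD40L + IL-4 and 4 and 4 after LPS + IL-4 (15 tested there). The same counts were 1 and 2, 4 and 4, and 3 and 3 for PU.1 cKO, and 2 and 1, 0 and 0, and 2 and 1 for SpiB KO. Of all genes, naive DKO cells had 7.39% higher and 6.7% lower, with 5.84% and 7.82% after CD40L + IL-4 and 8.76% and 4.81% after LPS + IL-4. In PU.1 cKO these shares were 3.16% and 5.24%, 3.91% and 5.45%, and 3.93% and 2.74%, and in SpiB KO 3.46% and 2.9% in naive cells, 0.11% in either direction after CD40L + IL-4, and 1.62% and 0.667% after LPS + IL-4. Here too at most the 4 DE genes of largest change are named per comparison. A gene not named at a stage was not thereby shown to be unchanged there. In DKO Fcer2a (CD23), whose control regions drive the Cre, was lower in naive (-2.99 ± 0.15 SE) and LPS + IL-4 cells (-1.93 ± 0.13 SE). Fcer2a overlaps Trappc5, so its reads are uncertain in the same way as those of Cd274. Slamf1 was lower in both cultures (-2.24 ± 0.21 and -1.19 ± 0.15 SE), and Il2ra, the alpha chain of the IL-2 receptor, higher in both (2.03 ± 0.20 and 0.94 ± 0.18 SE). Ly6a was higher after CD40L + IL-4 (2.66 ± 0.20 SE), and Il4ra, the receptor chain for the IL-4 in the culture, was higher after LPS + IL-4 (1.22 ± 0.11 SE). Naive DKO cells had higher Cd9 (2.01 ± 0.28 SE), Cd93 (1.83 ± 0.17 SE) and Slc7a5 (0.93 ± 0.13 SE). In control, Il2ra and Tfrc, the transferrin receptor of dividing cells, were higher in both cultures than in naive cells (Il2ra 2.60 ± 0.28 and 4.82 ± 0.26 SE, Tfrc 2.03 ± 0.21 and 3.56 ± 0.22 SE), and Cd38 was lower (-2.84 ± 0.28 and -4.68 ± 0.30 SE).

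For each of the 10 genes, the tested gene with the most similar pattern was sought by Pearson's r of log2 CPM over the 12 group means, among 13622 genes. These were Pigv for Icosl (r = 0.995), Rnf157 for Cd83 (0.981), Eci2 for Cd44 (0.980), Pnrc2 for Cd274 (0.979), Cpsf3 for Icam1 (0.978), Rassf5 for Pdcd1lg2 (0.977) and Oxnad1 for Cd69 (0.972). The matches of Cd86 (Smad2, 0.905), Cd80 (Gm8971, 0.863) and Tnfsf9 (Oat, 0.859) were weaker. The 12 means share stages and genotypes and differ in depth, and each match is the highest r among 13622 genes. Some matches varied little over the means, with a log2 range of 0.40 for Gm8971 and 0.65 for Cpsf3, against 2.49 for Pigv.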

How the data were processed

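Libraries had been made from total RNA of sorted CD3- B220+ CD138- B cells with the TruSeq kit. The authors aligned reads with Subread to GRCm38/mm10 and counted them per RefSeq gene with featureCounts (versions not given in the sources used here), and the deposited counts are whole reads, not normalized. The deposited log2 RPKM values were quantile normalized by the authors, separately for LPS + IL-4, and served only for levels between genes and the threshold on expression. The labels attach the CD40L + IL-4 protocol to every sample, so stages were taken from the cell type and title labels. Entries without a symbol (517, with 0.162% of counts) were kept.

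Counts were tested with edgeR 4.0.16 (R 4.3.3; TMM, quasi-likelihood), in 1 fit of 8 libraries a stage and, between stages, in 1 fit of 24. Genes with at least 0.5 CPM in 2 libraries were kept. DE required an adjusted p under 0.15, a fold over 1.5 and a mean log2 RPKM above 0, whereas interactions and differences of effects were called on the adjusted p. The scripts were tested on simulated data in which 200 genes were changed by 1 on the log2 scale. Without the RPKM threshold, 65% to 75.5% of these were recovered, with 18 to 40 false calls a comparison. DKO against control after CD40L + IL-4 had the most, 40 false calls beside 130 recovered genes. The 10 genes and the other lists were chosen with earlier results of these data known. From the other lists, up to 4 DE genes a stage with the largest change in PU.1 SpiB DKO against control, or between stages in control, were named. Some genes of the lists are not reported here by name. The 2 replicates are labelled as biological, and p-values measure the spread between these libraries.

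Same-numbered libraries deviated together in naive (correlations of 0.168 to 0.381 over 6 pairs of groups) and LPS + IL-4 cells (0.418 to 0.603). In CD40L + IL-4 the correlations were lowest for control with SpiB KO (-0.0472) and with DKO (0.0262). The other pairs there lay between 0.264 and 0.403, much as in naive cells. The main fits did not use the replicate number. A block for it was run only as an alternative, at every stage. The block was the replicate number, within each stage for differences of effects. Alternatives were RLE normalization, DESeq2 1.42.0, no filter, voom with quantile normalization (limma 3.58.1), the replicate block, an adjusted p of 0.05, no RPKM threshold and leaving out each library.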

Additional observations from a re-analysis of the deposited data

Results flagged for a closer look

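Each value here is the log2 difference of a mutant's effect against control between 2 stages that passed an edgeR adjusted p under 0.15 in the fit of 24 libraries. It was flagged because the effect differed between stages by that test. CD40L + IL-4 libraries form a count table of their own, so a difference that involves them cannot be told apart from one of table.

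For PU.1 cKO, the effect on Cd44 was lower in CD40L + IL-4 than in naive cells (-0.74, adjusted p = 0.0444). Between LPS + IL-4 and naive cells the effect was lower for Cd86 (-1.12, adjusted p = 0.0837) and higher for Pdcd1lg2 (1.09, adjusted p = 0.0424) and Cd69 (0.76, adjusted p = 0.0943). Between the cultures it was higher in LPS + IL-4 for Cd69 (0.87, adjusted p = 0.0941). Leaving out 1 library at a time ended both Cd69 differences for 6 libraries each, every LPS + IL-4 control and PU.1 cKO library among them (adjusted p = 0.186 to 0.288 against naive cells and 0.152 to 0.31 between the cultures). It ended that of Cd86 for 5, namely naive control replicate 2, both naive PU.1 cKO libraries, LPS + IL-4 control replicate 1 and LPS + IL-4 PU.1 cKO replicate 2 (adjusted p = 0.155 to 0.227). Cd44 was lost without naive control replicate 2 (-0.62, adjusted p = 0.161) and Pdcd1lg2 without LPS + IL-4 PU.1 cKO replicate 1 (0.996, adjusted p = 0.157). The other libraries that ended the Cd69 differences were naive control replicate 1 and naive PU.1 cKO replicate 2, and CD40L + IL-4 PU.1 cKO replicate 1 and CD40L + IL-4 control replicate 2.

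For PU.1 SpiB DKO, the effect in CD40L + IL-4 was lower than in naive cells for Cd83 (-0.55, adjusted p = 0.148) and Cd44 (-1.99, adjusted p = 3.06e-06), and higher for Pdcd1lg2 (1.05, adjusted p = 0.0266) and Cd69 (0.93, adjusted p = 0.0161). In LPS + IL-4 it was lower than in naive cells for Cd86 (-1.002, adjusted p = 0.0432), Cd80 (-1.28, adjusted p = 0.135), Cd44 (-1.76, adjusted p = 1.12e-05) and Icam1 (-0.57, adjusted p = 0.0147), and higher for Cd274 (1.06, adjusted p = 0.0409) and Pdcd1lg2 (1.71, adjusted p = 0.000319). Cd80 rests on 5 to 85 counts a library. Between the cultures it was higher in LPS + IL-4 for Cd274 (1.27, adjusted p = 0.021) and Pdcd1lg2 (0.66, adjusted p = 0.139), and lower for Cd69 (-0.74, adjusted p = 0.0412) and Icam1 (-0.65, adjusted p = 0.0094). Pdcd1lg2 between the cultures was lost without any 1 of 7 of the 8 libraries, CD40L + IL-4 DKO replicate 1 being the exception (adjusted p = 0.192 to 0.354), and with voom (0.54, adjusted p = 0.261). Cd80 was lost without any naive control or DKO library, LPS + IL-4 DKO replicate 1 or LPS + IL-4 control replicate 2 (adjusted p = 0.17 to 0.351), with DESeq2 (adjusted p = 0.151) and without the filter on low counts (adjusted p = 0.205). Cd83 was lost without either CD40L + IL-4 DKO library, CD40L + IL-4 control replicate 2, naive DKO replicate 1 or naive control replicate 2 (-0.63 to -0.38, adjusted p = 0.151 to 0.394). Without LPS + IL-4 DKO replicate 1 the LPS + IL-4 differences from naive cells were lost for Cd86 (-0.89, adjusted p = 0.153) and Cd274 (0.90, adjusted p = 0.163), the second also without LPS + IL-4 control replicate 2 (0.77, adjusted p = 0.239), and Cd69 between the cultures was lost without CD40L + IL-4 control replicate 1 (-0.52, adjusted p = 0.192). Naive DKO libraries held more Spi1 than naive PU.1 cKO libraries (0.92 on the log2 scale), and its part in the differences from naive cells was not tested. The naive DKO libraries hold the pDC, T cell and macrophage markers given for Cd44, and their part in these differences was not tested.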

How the results depend on the processing

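RLE normalization moved none of the counts of DE members by over 1.5 times, and no called value changed sign under any alternative, while 115 of 2207 values not called in either setting did. Of 44 genotype calls within a stage 30 were kept under every alternative, of 19 between stages in control 16, of 19 differences of effects 8, and of 1 interaction 0. Naive SpiB KO had 1 DE member in place of 2 with voom and at an adjusted p of 0.05 (Icosl lost), and naive DKO against PU.1 cKO 2 in place of 1 without the filter or the RPKM threshold. DKO against PU.1 cKO after CD40L + IL-4 had 1 in place of 2 with voom and at 0.05. The interactions moved from 0 to 2 (DESeq2) and 3 (no filter) after CD40L + IL-4, and from 1 to 2 (DESeq2, no filter) and 0 (0.05) after LPS + IL-4. The PU.1 cKO effect went from 1 to 2 (DESeq2, no filter) between CD40L + IL-4 and naive cells, from 3 to 1 (0.05) between LPS + IL-4 and naive cells, and from 1 to 2 (no filter) and 0 (0.05) between the cultures. With the replicate block the interactions had 1 call in naive cells, 1 after CD40L + IL-4 (Cd69, 1.07, adjusted p = 0.0583) and 2 after LPS + IL-4, and the PU.1 cKO effect 2 between CD40L + IL-4 and naive cells (Icosl, -0.91, adjusted p = 0.0755) and 2 between the cultures (Pdcd1lg2, 0.68, adjusted p = 0.126). The block also added Icosl to the DKO effect between the cultures (-0.75, adjusted p = 0.117), with the Icam1 call given in the report, and ended no call. The cause of these changes was not tested.

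With each library left out in turn, naive cells had 2 to 4 DE members in PU.1 cKO, 1 to 2 in SpiB KO, 4 to 6 in DKO, 1 to 1 in DKO against PU.1 cKO, 0 to 1 against SpiB KO and 0 to 0 in the interaction. CD40L + IL-4 cultures had 2 to 4, 0 to 0, 3 to 4, 0 to 2, 2 to 3 and 0 to 1, and LPS + IL-4 cultures 3 to 4, 1 to 2, 6 to 8, 2 to 3, 4 to 5 and 0 to 1, in the same order. Control had 5 to 6 (CD40L + IL-4 against naive), 7 to 8 (LPS + IL-4 against naive) and 6 to 7 (between cultures). The PU.1 cKO effect had 0 to 2, 1 to 3 and 0 to 1 and the DKO effect 3 to 4, 3 to 6 and 2 to 5, for the same stages. A lone library was then assumed to vary like the other groups. Cd80, at 5 to 85 counts, and Tnfsf9, at 12 to 245, are limited by depth.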
